A study of Bombyx mori with 6 samples.

Results

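Genes for antimicrobial peptides, lysozymes, microbe recognition proteins, lectins and the Toll and IMD signalling pathways were followed in fat body RNA of the silkworm, Bombyx mori. Members were gene models whose product name in the NR protein database contained one of a set of immune words, such as attacin, lysozyme, C-type lectin or toll. This gave 67 members of 16877 gene models, namely 13 antimicrobial peptides, 4 lysozymes, 16 bacterial and fungal recognition proteins, 9 lectins, hemolins or similarly named genes, and 25 signalling genes. Of these, 9 peptidoglycan recognition proteins entered because hyphens and spaces were read alike. The words cecropin, immulectin, relish, gram-negative and STAT matched no row used here. In 3 members only a word of the rule was shared (a dorsal root ganglia homeobox gene, the patterning protein Sog and the yippee-like hemolin-interacting protein), and these are not known as immune genes.

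The 6 libraries comprised 3 labelled siUFBP1, from animals given a small interfering RNA against UFBP1, and 3 labelled siNC, given a negative control small interfering RNA. UFBP1 is a membrane protein of the endoplasmic reticulum that takes part in UFMylation, the attachment of the small modifier UFM1 to proteins. Per the labels, larvae of the P50 strain on day 3 of instar 5 received 2.5 µg of either siRNA and, 12 h later, 5 µL of a suspension of the baculovirus BmNPV, so that virus was given in both groups. Fat body was taken at 24, 48 and 72 h, with no time stated for each library. The labels also name the ovary-derived cell line BmN and its transfection, and do not say how many animals stand behind a library. The spread behind each p-value is therefore that of these libraries and may be technical.

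Insect fat body is the main source of hemolymph antimicrobial peptides. Recognition proteins such as peptidoglycan recognition proteins (PGRPs) and beta-glucan recognition proteins bind bacterial or fungal cell walls and pass the signal to the Toll and IMD pathways or to the melanization cascade. In Drosophila, the ligand spaetzle activates Toll, which leads to the release of the NF-kappa-B factor dorsal from its inhibitor cactus, whereas the adaptor IMD acts below membrane PGRPs. Both pathways switch on antimicrobial peptide genes.

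The libraries held 25570725 to 53204480 counts. The UFBP1 transcript itself stood at 32.7, 34.4 and 34.6 CPM (counts scaled to library size, with TMM factors) in siUFBP1 and 36.5, 31.1 and 34.2 CPM in siNC (log2 fold change 0.00 ± 0.06, SE, adjusted p = 0.951). The targeted transcript was thus not lower in the libraries labelled siUFBP1, whose label it does not bear out; siUFBP1 below always means the libraries so labelled, and every direction given rests on that label. Storage and lipid carrier proteins of the fat body took 47.7% to 49.1% of counts in siUFBP1 and 74.3% to 74.7% in siNC, with 55 and 53 of the 65 listed genes detected. Silk gland markers took 10.1% to 11.8% of counts in siUFBP1 and 0.05% to 0.053% in siNC. This shift in composition moves any value scaled to library size. Over all tested genes the log2 fold change had a median of 0.11 with TMM factors. That median lay 0.80 higher when only library size was used, and moved by -0.14 with upper quartile scaling. In such tissue RNA, fewer cells of a type and less RNA per cell cannot be told apart.

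Across the members, 54 had enough counts to be tested and 41 differed between the groups. The siUFBP1 libraries had 22 of them higher and 19 lower, and 13 did not pass (edgeR's quasi-likelihood test, Benjamini-Hochberg adjusted p below 0.05). Over all 10729 tested genes, 40.0% were higher and 28.4% lower, against 40.7% and 35.2% of the tested members. The median log2 fold change of the tested members was 0.03, against 0.11 for all genes. Without the 2 tested members that share only a word of the rule, 20 were higher and 19 lower of 52, with a median of -0.03. By 2-fold or more, 13 members were higher and 3 lower, where 22.7% of all tested genes were higher and 5.11% lower by that much. Groups did not overlap for 44 of the 54, beside 71.2% of all tested genes. These shares lie close to the background and are no result about the members as a set.

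**Figure D1:**
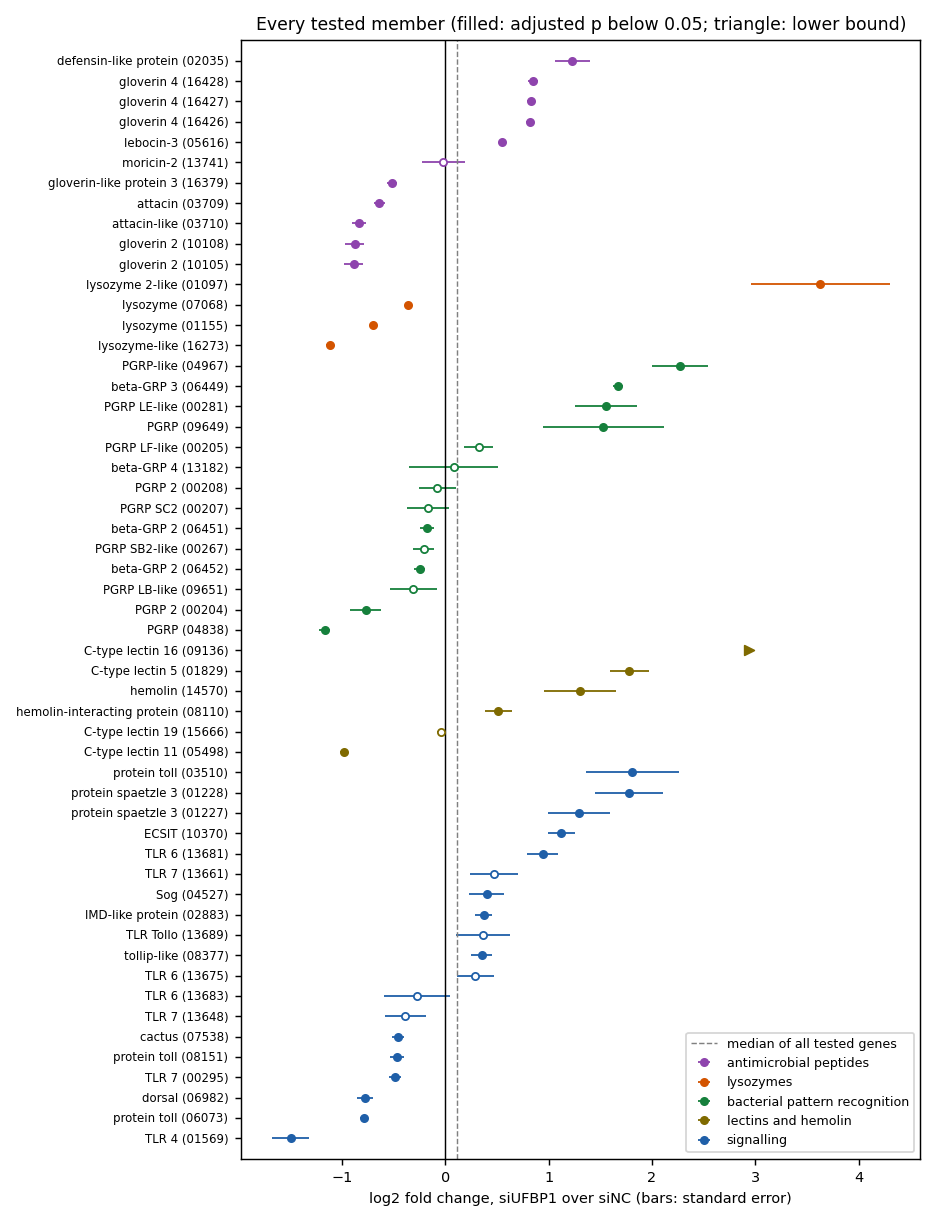
Log2 fold change of siUFBP1 over siNC (x axis, TMM scaling) for all 54 tested members, grouped by role, with bars for the standard error. Filled points have an adjusted p below 0.05, the dashed line marks the median of all tested genes at 0.11, and the triangle is the lower bound of C-type lectin 16, which had no siNC count. Each role class except the lysozymes and lectins holds several genes on either side of 0.

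Scaling decided the direction of many members. With TMM, upper quartile and library size scaling alike, 20 members were higher and 4 were lower. The share of all tested genes called alike under every one of these scalings was not counted. These joint counts are therefore no result about the members. Scaled to library size alone, 39 members were higher and 4 lower, beside 80.2% and 4.21% of all tested genes, or 84.4% in either direction. Upper quartile scaling gave 20 higher and 22 lower members, beside 33.9% and 35.5% of all tested genes, or 69.4% in either direction. Of the 19 members lower with TMM factors, 8 were higher and 7 did not pass with library size alone (share of all such genes not counted). Values with library size alone are therefore given beside the members described as lower.

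**Figure D2:**
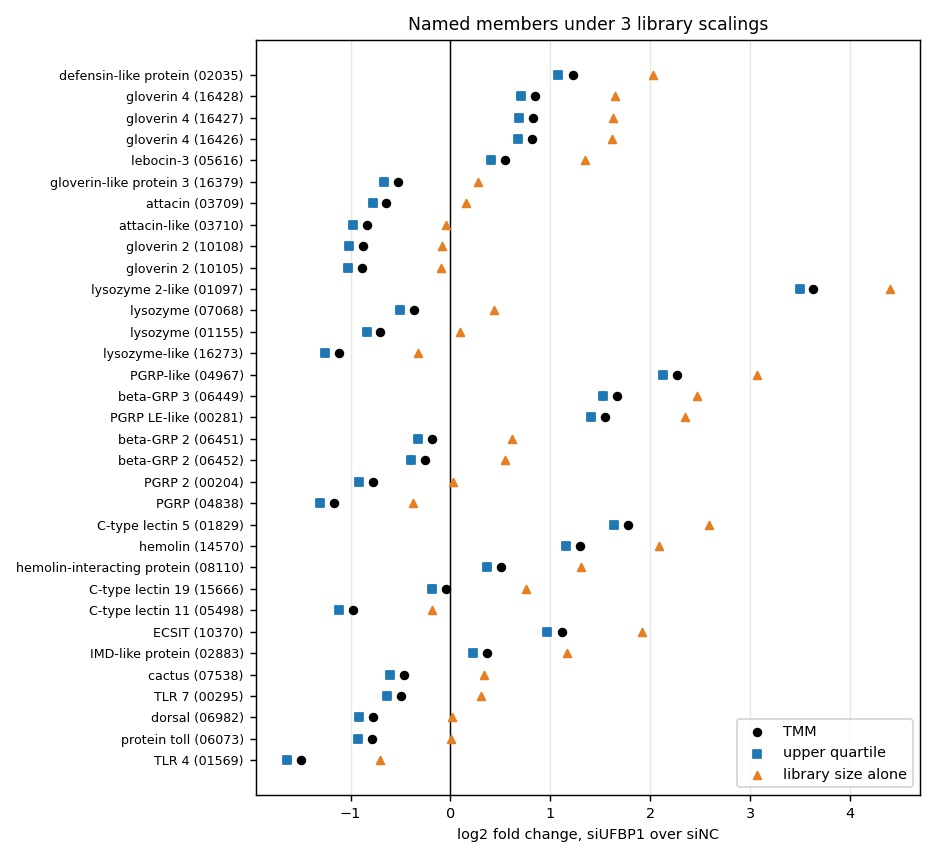
Log2 fold change of siUFBP1 over siNC (x axis) for the named members, apart from C-type lectin 16, under TMM factors (circles), upper quartile scaling (squares) and library size alone (triangles). The gloverin 4 copies, lebocin-3 and glucan recognition protein 3 lie right of 0 under all 3 scalings, and PGRP-S1, lysozyme-like, C-type lectin 11 and toll-like receptor 4 lie left of 0 under all 3.

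Among the antimicrobial peptides, 5 of 11 tested were higher and 5 lower (40.0% and 28.4% of all tested genes), a split that ran through the gloverin family. Library size alone gave 8 higher and 0 lower (80.2% and 4.21% of all tested genes). Lebocin-3 (KWMTBOMO05616), a proline-rich peptide precursor, was the most abundant of the antimicrobial peptides by count. It stood at 299, 304 and 306 CPM in siUFBP1 and 202, 211 and 206 CPM in siNC. All 3 siUFBP1 libraries lay above all siNC libraries, with a log2 fold change of 0.55 ± 0.03 (SE, adjusted p = 1.26e-11).

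Gloverins are glycine-rich peptides of moths and butterflies with activity against Gram-negative bacteria. The gloverin 4 copy KWMTBOMO16427 stood at 80.3, 79.4 and 81.0 CPM in siUFBP1 and 45.2, 43.6 and 46.9 CPM in siNC, a log2 fold change of 0.83 ± 0.04 (SE, adjusted p = 2.24e-12). The groups did not overlap for this copy or for the other gloverin 4 copies. KWMTBOMO16426 and KWMTBOMO16428 had log2 fold changes of 0.82 ± 0.04 and 0.85 ± 0.05 (SE).

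The gloverin 2 copies went the other way in TMM scaling. KWMTBOMO10105 stood at 10.7, 11.4 and 11.8 CPM in siUFBP1 and 22.0, 23.7 and 17.1 CPM in siNC, a log2 fold change of -0.89 ± 0.09 (SE, adjusted p = 1.25e-07) and, with library size alone, of -0.09 (adjusted p = 0.445). KWMTBOMO10108 gave nearly the same values, its log2 fold change being -0.88 ± 0.09 (SE) and, with library size alone, -0.08. The ratio of counts between these copies lay within 0.957 to 1.02 in every library, and that of KWMTBOMO16426 over KWMTBOMO16427 within 0.949 to 1.01. For KWMTBOMO16428 over KWMTBOMO16427 it lay within 0.59 to 0.615. How shared reads were assigned to such copies is not known here, so each copy's own value is uncertain. The family sums would count a shared read more than once if it was assigned to every copy, so their levels are uncertain too. The 3 gloverin 4 copies together averaged 207 ± 2.92 CPM in siUFBP1 and 117 ± 2.8 CPM in siNC, and the gloverin 2 copies 22.8 ± 1.11 CPM in siUFBP1 and 42.3 ± 6.49 CPM in siNC (SD, n = 3 each).

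Gloverin-like protein 3 (KWMTBOMO16379) stood at 21.7, 21.6 and 20.6 CPM in siUFBP1 and 31.8, 30.1 and 29.5 CPM in siNC. Its log2 fold change was -0.52 ± 0.05 (SE, adjusted p = 1.11e-07), and 0.28 with library size alone. Its direction therefore rests on the scaling.

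Attacins are larger glycine-rich proteins that act on the outer membrane of Gram-negative bacteria. The attacin precursor (KWMTBOMO03709) stood at 30.9, 28.3 and 31.5 CPM in siUFBP1 and 47.4, 48.0 and 46.6 CPM in siNC, a log2 fold change of -0.64 ± 0.05 (SE, adjusted p = 1.85e-09) and, with library size alone, of 0.16. The attacin-like gene (KWMTBOMO03710) stood at 13.7, 13.5 and 12.3 CPM in siUFBP1 and 21.8, 23.7 and 24.7 CPM in siNC, a log2 fold change of -0.84 ± 0.07 (SE) and, with library size alone, of -0.04 (adjusted p = 0.674). Neither attacin overlapped between groups in TMM scaling.

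The remaining peptides were scarce. The defensin-like precursor (KWMTBOMO02035), of a family of cysteine-rich peptides, stood at 2.94, 3.26 and 3.06 CPM in siUFBP1 and 1.40, 1.40 and 1.14 CPM in siNC, a log2 fold change of 1.23 ± 0.17 (SE, adjusted p = 6.19e-06). Moricin-2 (KWMTBOMO13741), a helical peptide, stood at 1.76, 1.57 and 1.91 CPM in siUFBP1 and 2.38, 1.44 and 1.58 CPM in siNC, and the groups overlapped (log2 fold change -0.02 ± 0.21, SE, adjusted p = 0.947). Defensin-like protein 2 (KWMTBOMO07664) had 23 counts over the siUFBP1 group and 2 over the siNC group, a ratio of 5.40 with an exact 95% interval of 1.33 to 47.2 for counting error only. Moricin-1-like (KWMTBOMO13742) had no count in any library.

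**Figure D3:**
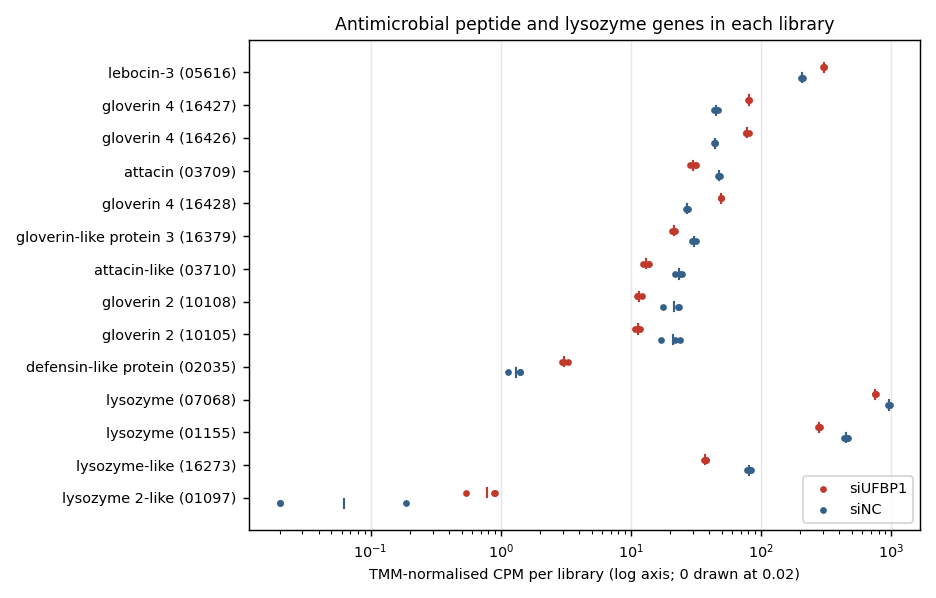
TMM-normalised CPM (log x axis) of the named antimicrobial peptide and lysozyme genes in each library, 3 siUFBP1 libraries above 3 siNC libraries for each gene, with a tick at the group mean and counts of 0 drawn at 0.02. Apart from lysozyme 2-like, with siNC libraries at 0.187, 0 and 0 CPM, the points of a group lie close together, and the order of the groups differs between gloverin 4 (siUFBP1 above siNC) and gloverin 2 (siUFBP1 below siNC, but at -0.09 and -0.08 on the log2 scale with library size alone).

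Lysozymes, which cleave the peptidoglycan of bacterial walls, gave 1 higher and 3 lower genes of 4 (40.0% and 28.4% of all tested genes). Library size alone gave 2 higher and 1 lower (80.2% and 4.21% of all tested genes). The lysozyme precursor KWMTBOMO07068 (RefSeq symbol Lzm) was the most abundant of all members. It stood at 747, 746 and 764 CPM in siUFBP1 and 946, 967 and 976 CPM in siNC, a log2 fold change of -0.36 ± 0.03 (SE, adjusted p = 1.33e-09) and, with library size alone, of 0.44. The lysozyme KWMTBOMO01155 stood at 284, 272 and 277 CPM in siUFBP1 and 463, 454 and 433 CPM in siNC, a log2 fold change of -0.70 ± 0.03 (SE, adjusted p = 8.84e-13) and, with library size alone, of 0.10 (adjusted p = 0.0555).

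The lysozyme-like gene KWMTBOMO16273 was lower under every scaling tried. It stood at 37.7, 36.3 and 37.8 CPM in siUFBP1 and 81.7, 83.0 and 78.1 CPM in siNC, a 2.17-fold decrease (log2 fold change -1.12 ± 0.04, SE, adjusted p = 3.37e-14), and -0.32 with library size alone (adjusted p = 4.08e-05). Lysozyme 2-like (KWMTBOMO01097) had 31, 18 and 65 counts in siUFBP1 and 4, 0 and 0 counts in siNC (log2 fold change 3.63 ± 0.67, SE, adjusted p = 0.000107). Its rise was thus a step out of near absence, at under 1 CPM in each library. Its size rests on the 4 counts of siNC replicate 1: without siNC replicate 2 the log2 fold change was 3.00, and without siNC replicate 1 no siNC count remained and the fitted value of 7.88 is no bound.

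PGRPs and glucan recognition proteins split into 4 higher, 4 lower and 6 that did not pass of 14 tested, beside 68.4% of all tested genes that differed in either direction. Scaled to library size alone, 10 were higher and 1 lower, beside 80.2% and 4.21% of all tested genes. PGRP-S1 (KWMTBOMO04838), the short secreted form, was the most abundant recognition protein by count in both groups. It stood at 81.2, 75.8 and 77.7 CPM in siUFBP1 and 166, 172 and 191 CPM in siNC. No library overlapped, with a 2.25-fold decrease (log2 fold change -1.17 ± 0.05, SE, adjusted p = 7.81e-14), and -0.37 with library size alone (adjusted p = 1.02e-06).

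PGRP-S2 (KWMTBOMO04967), a related short form, moved in the other direction at a far lower level. It stood at 1.88, 2.17 and 2.61 CPM in siUFBP1 and 0.28, 0.616 and 0.495 CPM in siNC, a 4.81-fold increase (log2 fold change 2.27 ± 0.27, SE, adjusted p = 8.14e-07). The PGRP-LE-like gene KWMTBOMO00281, whose Drosophila namesake works above IMD, stood at 1.88, 1.42 and 1.42 CPM in siUFBP1 and 0.327, 0.780 and 0.445 CPM in siNC (log2 fold change 1.55 ± 0.30, SE, adjusted p = 0.00019). Both genes rose without overlap between groups. Both needed the siUFBP1 libraries to pass the count filter, an entry that favours this direction.

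PGRP 2 (KWMTBOMO00204) stood at 2.09, 2.36 and 2.46 CPM in siUFBP1 and 4.57, 3.94 and 3.41 CPM in siNC, its log2 fold change being -0.77 ± 0.15 (SE, adjusted p = 0.000217) and, with library size alone, 0.03 (adjusted p = 0.873). A PGRP precursor (KWMTBOMO09649) had 13, 14 and 29 counts in siUFBP1 and 4, 5 and 0 counts in siNC, and passed with an adjusted p of 0.0289. That call ended without any one of the siUFBP1 libraries or without siNC replicate 3 (adjusted p = 0.0562, 0.0612, 0.0793 and 0.125), and also with no count filter, DESeq2's Wald test and the replicate block (0.0624, 0.0679 and 0.0929). The other 5 tested PGRPs (LF-like, SC2, SB2-like, LB-like and a second PGRP 2 copy) had log2 fold changes of -0.31 to 0.32 and did not pass. With library size alone KWMTBOMO00205 (LF-like, 1.12), KWMTBOMO00207 (SC2, 0.63), KWMTBOMO00208 (the PGRP 2 copy, 0.72) and KWMTBOMO00267 (SB2-like, 0.60) passed as higher on the log2 scale. The LF-like gene (KWMTBOMO00205) passed as higher without siUFBP1 replicate 1 or siNC replicate 1 (adjusted p = 0.0149 and 0.0215) and with no count filter (0.0367). The SB2-like gene (KWMTBOMO00267) passed as lower without siUFBP1 replicate 1 (adjusted p = 0.0379) and with upper quartile scaling (adjusted p = 0.00652). Of the PGRP-LB models, KWMTBOMO09650 had no count and KWMTBOMO09652 had 5 counts over siUFBP1 and none over siNC.

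Glucan recognition proteins bind fungal and bacterial wall glucans. Member 3 of the family (KWMTBOMO06449, RefSeq symbol BGRP3) rose without overlap, at 71.6, 69.5 and 72.8 CPM in siUFBP1 and 22.7, 22.2 and 22.5 CPM in siNC. This was a 3.18-fold increase (log2 fold change 1.67 ± 0.05, SE, adjusted p = 4.41e-16), and 2.47 on the log2 scale with library size alone. Among the tested members with a mean of at least 10 CPM, it had the largest fold change in either direction under TMM scaling.

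The gene models that share the symbol BGRP2 moved little in TMM scaling. They carry neighbouring numbers and may be copies or parts of a single gene. KWMTBOMO06452 stood at 23.7, 24.6 and 23.2 CPM in siUFBP1 and 28.9, 28.1 and 27.6 CPM in siNC, a log2 fold change of -0.25 ± 0.05 (SE, adjusted p = 0.000434) and, with library size alone, of 0.55. KWMTBOMO06451 was at -0.18 ± 0.07 (SE, adjusted p = 0.0305) and at 0.62 with library size alone. That call ended when siUFBP1 replicate 2 or 3 or siNC replicate 1 or 2 was left out (adjusted p = 0.0795, 0.0761, 0.0804 and 0.0679), and also with no count filter, DESeq2's Wald test and the replicate block (0.0918, 0.116 and 0.0504). Glucan recognition protein 4 (KWMTBOMO13182) stayed under 1 CPM in every library, and its groups overlapped.

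C-type lectins bind sugars on microbial surfaces and help hemocytes to aggregate and engulf. Of the 9 lectins, hemolins and similarly named genes, 6 were tested, 4 of them higher and 1 lower (40.0% and 28.4% of all tested genes). Library size alone gave 5 higher and 1 lower (80.2% and 4.21% of all tested genes). One of the higher genes is the hemolin-interacting protein, which shares only a word of the rule. C-type lectin 11 (KWMTBOMO05498) was the most abundant, at 232, 233 and 246 CPM in siUFBP1 and 491, 461 and 451 CPM in siNC. It was lower without overlap, its log2 fold change being -0.98 ± 0.04 (SE, adjusted p = 3.22e-14) and, with library size alone, -0.18 (adjusted p = 0.00359).

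C-type lectin 19 (KWMTBOMO15666) stood at 68.0, 65.8 and 68.1 CPM in siUFBP1 and 72.2, 69.9 and 66.1 CPM in siNC. The groups overlapped, its log2 fold change being -0.04 ± 0.04 (SE, adjusted p = 0.355) and, with library size alone, 0.76 (adjusted p = 1.53e-11). With upper quartile scaling it passed as lower, at -0.18 (adjusted p = 0.000614), so its call rests on the scaling.

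C-type lectin 5 (KWMTBOMO01829) stood at 4.62, 4.65 and 5.67 CPM in siUFBP1 and 0.933, 1.93 and 1.48 CPM in siNC, a 3.44-fold increase (log2 fold change 1.78 ± 0.19, SE, adjusted p = 1.64e-07). C-type lectin 16 (KWMTBOMO09136) had 13, 15 and 21 counts in siUFBP1 and none in any siNC library, at least 7.67-fold higher against a floor of 3 counts over the siNC group. C-type lectins 17 and 37Db had at most 13 counts in a library and were not tested, and C-type lectin 6 had none.

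Hemolin (KWMTBOMO14570), an immunoglobulin-family protein that moths make after bacterial challenge, was almost absent. It had 31, 30 and 52 counts in siUFBP1 and 7, 8 and 7 counts in siNC, which is 0.708 to 0.911 CPM in siUFBP1 and 0.327 to 0.346 CPM in siNC (log2 fold change 1.30 ± 0.35, SE, adjusted p = 0.00357). The hemolin-interacting protein KWMTBOMO08110 stood at 5.97, 6.40 and 7.42 CPM in siUFBP1 and 4.81, 5.54 and 3.66 CPM in siNC (log2 fold change 0.51 ± 0.13, SE, adjusted p = 0.00293).

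Among 19 tested signalling genes, 8 were higher and 6 lower (40.0% and 28.4% of all tested genes). Library size alone gave 14 higher and 1 lower (80.2% and 4.21% of all tested genes). Without Sog, 7 of 18 were higher with TMM factors. A Toll receptor, the inhibitor cactus and the transcription factor dorsal were lower together in TMM scaling and not with library size alone. The Toll receptor KWMTBOMO06073 was the most abundant signalling gene by count, at 155, 148 and 146 CPM in siUFBP1 and 241, 271 and 263 CPM in siNC (log2 fold change -0.79 ± 0.04, SE, adjusted p = 3.55e-12), and at 0.01 on the log2 scale with library size alone (adjusted p = 0.918). Dorsal (KWMTBOMO06982) stood at 7.64, 6.74 and 7.48 CPM in siUFBP1 and 13.0, 12.0 and 12.9 CPM in siNC (log2 fold change -0.78 ± 0.08, SE, adjusted p = 1.64e-07), and at 0.02 on the log2 scale with library size alone (adjusted p = 0.856). Cactus (KWMTBOMO07538) stood at 26.7, 24.3 and 28.1 CPM in siUFBP1 and 35.4, 38.8 and 35.0 CPM in siNC (log2 fold change -0.46 ± 0.06, SE, adjusted p = 2.22e-06), and at 0.34 on the log2 scale with library size alone.

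Of 15 gene models named as Toll or Toll-like receptors, 11 were tested, with 2 higher and 4 lower (40.0% and 28.4% of all tested genes). Library size alone gave 7 higher and 1 lower (80.2% and 4.21% of all tested genes). Toll-like receptor 4 (KWMTBOMO01569) was lower under every scaling tried, at 1.94, 1.66 and 1.33 CPM in siUFBP1 and 5.04, 4.80 and 3.66 CPM in siNC. This was a 2.83-fold decrease (log2 fold change -1.50 ± 0.18, SE, adjusted p = 6.45e-07), and -0.70 with library size alone (adjusted p = 0.000891), the largest decrease among the members under TMM scaling. Toll-like receptor 7 (KWMTBOMO00295) stood at 20.3, 21.0 and 19.1 CPM in siUFBP1 and 27.9, 27.9 and 28.5 CPM in siNC (log2 fold change -0.49 ± 0.06, SE, adjusted p = 3.94e-07), and at 0.31 on the log2 scale with library size alone.

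A second Toll model (KWMTBOMO08151) was at -0.47 ± 0.07, and at 0.33 with library size alone. The higher receptors were a Toll model at under 1 CPM (KWMTBOMO03510, 1.81 ± 0.45) and a toll-like receptor 6 model (KWMTBOMO13681, 0.94 ± 0.15; log2 fold changes with SE). The 5 receptor models that did not pass had log2 fold changes of -0.39 to 0.47 and stood at 0.626 to 3.06 CPM in siUFBP1 and 0.698 to 2.92 CPM in siNC. Among them KWMTBOMO13648 (-0.39, at 0.41 with library size alone) passed without siUFBP1 replicate 2 or siNC replicate 2 (adjusted p = 0.042 and 0.0235), KWMTBOMO13661 without siUFBP1 replicate 2 (adjusted p = 0.0443) and KWMTBOMO13675 without siNC replicate 2 (adjusted p = 0.0351). With library size alone KWMTBOMO13661, KWMTBOMO13675 and KWMTBOMO13689 passed as higher (log2 fold changes 1.28, 1.09 and 1.17), and with upper quartile scaling KWMTBOMO13648 passed as lower (adjusted p = 0.0249). Of the 4 untested models, KWMTBOMO08152 had no count, KWMTBOMO05061 had 2 counts in all, KWMTBOMO14085 had 7, all in siUFBP1, and KWMTBOMO06950 had 12 over siUFBP1 and 2 over siNC.

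The ligand spaetzle 3 was found as a pair of gene models, both higher and both scarce. The pair needed the siUFBP1 libraries to pass the count filter, an entry that favours this direction. KWMTBOMO01228 had 44, 54 and 80 counts in siUFBP1 and 5, 11 and 9 counts in siNC (log2 fold change 1.78 ± 0.33, SE, adjusted p = 0.000122). KWMTBOMO01227 had 32, 37 and 97 counts in siUFBP1 and 12, 10 and 9 counts in siNC (log2 fold change 1.29 ± 0.30, SE, adjusted p = 0.00111). Spaetzle 5 (KWMTBOMO12881) had at most 17 counts in a library and was not tested.

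The IMD-like adaptor KWMTBOMO02883 rose modestly, at 15.0, 13.7 and 14.9 CPM in siUFBP1 and 11.3, 10.3 and 12.2 CPM in siNC (log2 fold change 0.37 ± 0.08, SE, adjusted p = 0.000339). ECSIT (KWMTBOMO10370), a mitochondrial protein that in mammals also helps to assemble respiratory complex I, stood at 5.62, 5.80 and 5.40 CPM in siUFBP1 and 2.71, 2.63 and 2.37 CPM in siNC (log2 fold change 1.12 ± 0.13, SE, adjusted p = 3.47e-07). The toll-interacting protein KWMTBOMO08377, an adaptor that in mammals dampens Toll-like receptor signals, was at 0.35 ± 0.10 (SE, adjusted p = 0.00561). It did not pass with upper quartile scaling, and neither did Sog (KWMTBOMO04527, 0.40 ± 0.17, adjusted p = 0.0453). The call of Sog also ended when any library but siNC replicate 2 was left out (adjusted p = 0.0669 to 0.232), with DESeq2's Wald test (0.101) and with the replicate block (0.051). The dorsal root ganglia homeobox gene had no count in any library.

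**Figure D4:**
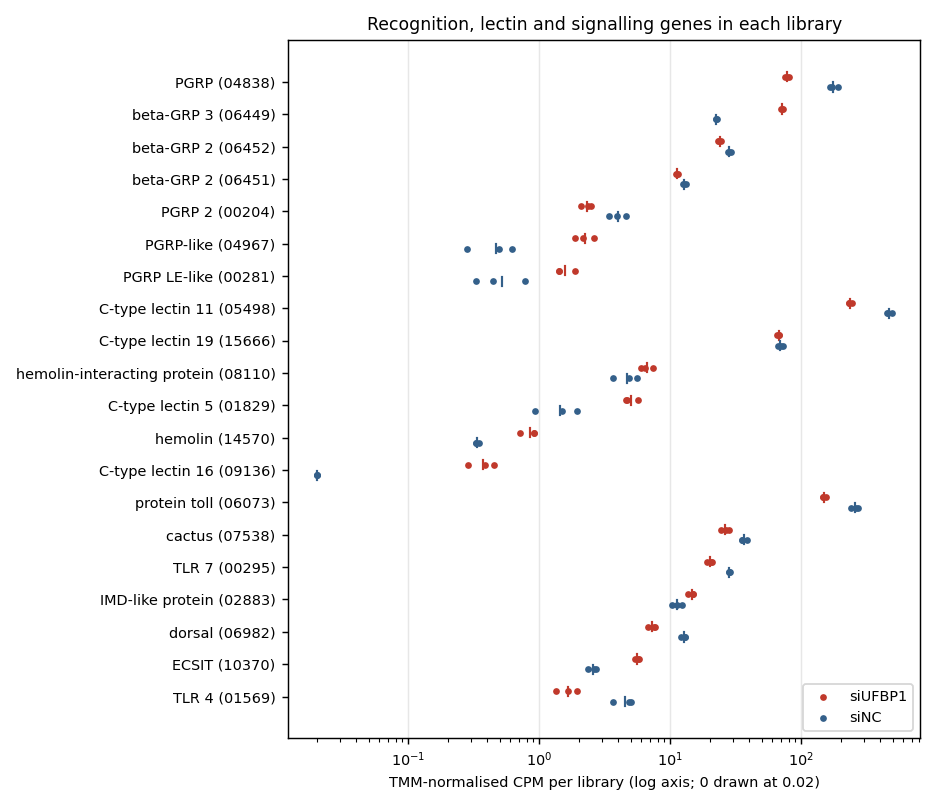
TMM-normalised CPM (log x axis) of the named recognition, lectin and signalling genes in each library, 3 siUFBP1 libraries above 3 siNC libraries for each gene, with a tick at the group mean and counts of 0 drawn at 0.02. The most abundant PGRP (PGRP-S1), C-type lectin 11 and the most abundant Toll receptor lie lower in siUFBP1, whereas glucan recognition protein 3, PGRP-S2 (the row PGRP-like) and C-type lectin 5 lie higher. With library size alone the Toll receptor lies at 0.01 on the log2 scale.

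Direction went with abundance. Of 23 tested members with a mean of at least 10 CPM, 6 were higher and 16 lower, beside 33.0% higher and 48.1% lower among all genes at that level. Of 31 members under 10 CPM, 16 were higher and 3 lower, beside 43.7% and 18.1% of all such genes. Scaled to library size alone, the counts became 15 higher and 3 lower of the abundant members (82.1% and 7.58% of all genes at that level) and 24 higher and 1 lower of the scarce ones (79.2% and 2.45%). This split was chosen after the values were seen. Among the tested members, 5 had under 10 counts in every siNC library and passed the count filter through the siUFBP1 libraries. They were lysozyme 2-like, C-type lectin 16, hemolin, KWMTBOMO09649 and KWMTBOMO03510. All were called higher, a direction that such entry favours, and they are counted among the higher members throughout. PGRP-S2, the PGRP-LE-like gene, both spaetzle 3 models and glucan recognition protein 4 also had a siNC library under 10 counts. They too needed the siUFBP1 libraries to pass the filter. All of these but glucan recognition protein 4 were called higher, and the same limit holds for them. The shares of all genes include such genes too, among them 681 with no siNC count.

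Per length, in the authors' FPKM values, the lysozyme precursor led the members in both groups, at 1526 ± 78.7 in siUFBP1 and 1138 ± 22.4 in siNC (SD, n = 3 each), rank 26 and rank 24 of all gene models. FPKM are scaled to library totals, so they serve here to order genes within a group. Next in siUFBP1 came lebocin-3 at 503.7 ± 24.4 FPKM, the lysozyme KWMTBOMO01155 at 415.0 ± 16.6 FPKM and C-type lectin 11 at 271.4 ± 19.7 FPKM (SD, n = 3). In siNC the order after the lysozyme precursor was KWMTBOMO01155 at 391.7 ± 18.1 FPKM, C-type lectin 11 at 311.5 ± 15.7 FPKM and lebocin-3 at 199.7 ± 7.23 FPKM (SD, n = 3). Lebocin-3 thus moved ahead of the lysozyme and the lectin in the siUFBP1 libraries. The gloverin 4 copy KWMTBOMO16426 reached 195.9 ± 6.64 FPKM in siUFBP1 and 64.41 ± 0.333 FPKM in siNC, above all other gloverins in both groups. As a raw share of library counts, all members together took 0.324% ± 0.0163 in siUFBP1 and 0.240% ± 0.00492 in siNC, and the antimicrobial peptides alone 0.0795% ± 0.00376 in siUFBP1 and 0.0356% ± 0.000994 in siNC (SD, n = 3 each). In TMM scaling the order turned for all members, which summed to 2431 to 2484 CPM in siUFBP1 and 3140 to 3182 CPM in siNC. The antimicrobial peptides summed to 603 ± 3.57 CPM in siUFBP1 and 469 ± 6.72 CPM in siNC (SD, n = 3 each), a ratio of 1.28.

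Ratios of counts within a library do not depend on any scaling, and they show which members shifted against each other. The pairs, and which member stands on top, were chosen after the values were seen, so the ratios are a description with no test. The 3 gloverin 4 copies together held 9.65, 9.04 and 8.62 times the counts of the gloverin 2 copies in siUFBP1 and 2.60, 2.42 and 3.42 times in siNC, so the ratio was 3.27-fold higher. The levels of this ratio depend on how reads shared between copies were assigned, which is not known. Lebocin-3 held 6.69, 7.27 and 6.99 times the attacin counts in siUFBP1 and 2.92, 2.95 and 2.88 times in siNC. Glucan recognition protein 3 held 2.03, 1.95 and 2.12 times the summed counts of the BGRP2 models in siUFBP1 and 0.540, 0.543 and 0.562 times in siNC, a 3.71-fold difference.

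The lysozyme precursor held 20.2 ± 0.357 times the counts of lysozyme-like in siUFBP1 and 11.9 ± 0.508 times in siNC (SD, n = 3 each). The ratio of PGRP-S2 to PGRP-S1 was 0.0285 ± 0.00524 in siUFBP1 and 0.00262 ± 0.000948 in siNC (SD, n = 3 each). Cactus over dorsal was 3.62 ± 0.129 in siUFBP1 and 2.90 ± 0.292 in siNC (SD, n = 3 each). The groups did not overlap for any of the 6 ratios, and their direction is fixed by that choice.

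**Figure D5:**
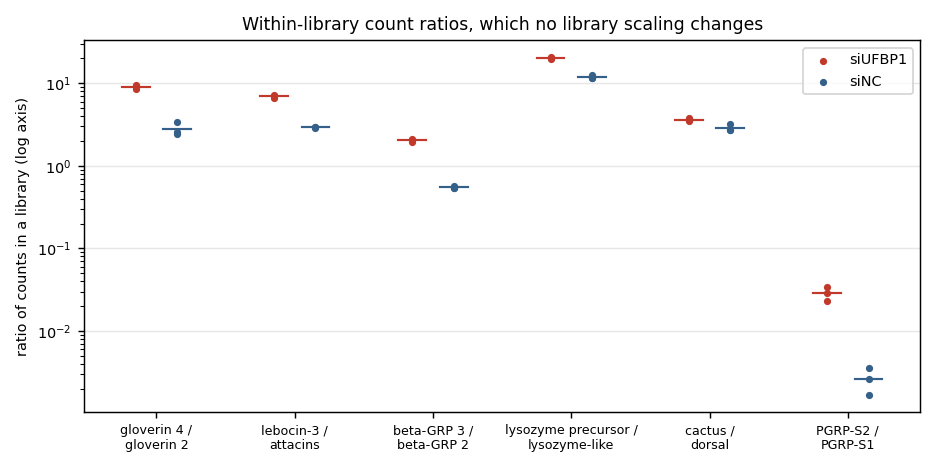
Ratio of counts within each library (log y axis) for 6 pairs of members or families, with 3 siUFBP1 libraries left of 3 siNC libraries and a line at each group's mean. With the member on top chosen from these values, the siUFBP1 libraries of every pair lie above the siNC libraries, by 1.25-fold for cactus over dorsal and by 11.3-fold for PGRP-S2 over PGRP-S1.

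Other genes of the same pathways were taken from a list of 42 product names, of which 39 were tested, 14 of them higher, 16 lower and 9 neither (40.0% and 28.4% of all tested genes higher and lower). Their log2 fold changes had a median of -0.08. Scaled to library size alone, 30 passed as higher and 4 as lower (80.2% and 4.21% of all tested genes). In the melanization group, 5 were higher and 6 lower of 12 (40.0% and 28.4% of all tested genes). Of the 6 lower ones, 4 are hemocytin models, which may be parts of a single gene. Library size alone gave 7 higher and 3 lower in this group (80.2% and 4.21% of all tested genes). The phenoloxidase-activating enzyme (KWMTBOMO16370), a serine protease that cleaves prophenoloxidase, stood at 36.7, 36.6 and 36.7 CPM in siUFBP1 and 7.93, 6.16 and 6.33 CPM in siNC, a 5.40-fold increase (log2 fold change 2.43 ± 0.08, SE, adjusted p = 2.58e-15). The phenoloxidase subunits, its substrates, split. Phenoloxidase subunit 1 (KWMTBOMO09392) was at -1.35 ± 0.11 (-0.54 with library size alone) and subunit 2 (KWMTBOMO09804) at 0.45 ± 0.06 (SE).

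Hemocytin, a clotting protein made by hemocytes, was lower in 4 of 4 tested gene models (28.4% of all tested genes). Of these, KWMTBOMO05444 was at -1.39 ± 0.07 (SE, -0.59 with library size alone). The models carry neighbouring numbers and may be parts of a single gene, so they may not be separate observations. With library size alone 2 of the 4 passed as lower, beside 4.21% of all tested genes. The whole hemocyte marker list, which holds hemocytin and phenoloxidase, took 0.0528% to 0.056% of counts in siUFBP1 and 0.0395% to 0.0404% in siNC, with all 24 genes detected in both groups. Within it 11 genes were lower and 5 higher of 21 tested with TMM factors (28.4% and 40.0% of all tested genes). The shares are of raw counts and so stand on another scale than these calls. The part of this list in these results was not tested.

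Between receptor and nucleus, the adaptor MyD88 (KWMTBOMO06029) was at 0.25 ± 0.10 and the kinase pelle (KWMTBOMO15850) at -0.04 ± 0.08 (SE). Pelle did not pass (adjusted p = 0.713), but passed as higher with library size alone, at 0.77 (adjusted p = 7.47e-08). The call of MyD88 (adjusted p = 0.0333) ended with upper quartile scaling and without siUFBP1 replicate 3, siNC replicate 1 or siNC replicate 2 (adjusted p = 0.335, 0.236, 0.102 and 0.14), and with DESeq2's Wald test (0.104). The beta subunit of the I-kappa-B kinase (KWMTBOMO10785) rose by 0.71 ± 0.10 on the log2 scale, and the ubiquitin ligase pellino (KWMTBOMO15321) by 1.02 ± 0.21 (SE). An IRAK4-like kinase (KWMTBOMO05260), a TAK1-like kinase (KWMTBOMO01385), TRAF6 (KWMTBOMO07659) and TRAF3 (KWMTBOMO08220) were lower, at -0.34, -0.37, -0.26 and -0.47. With library size alone they passed as higher, at 0.46, 0.43, 0.54 and 0.33. The call of TRAF6 (adjusted p = 0.0368) ended with DESeq2's Wald test (0.0821), no count filter (0.0598), limma-voom (0.0549) and the replicate block (0.0911). It also ended without any one library but siNC replicate 3 (0.0507 to 0.262). In the JAK/STAT group 1 of 7 genes was higher and 4 were lower (40.0% and 28.4% of all tested genes). Library size alone gave 4 higher and 0 lower (80.2% and 4.21% of all tested genes). Among the lower genes was the SUMO ligase PIAS3 (KWMTBOMO11650), at -0.64 ± 0.06 (SE) and, with library size alone, at 0.16 (adjusted p = 0.0739). The list also took in TRAF3-interacting protein 1 (KWMTBOMO15129), a cilium transport protein and no TRAF, at 16 to 16.8 CPM in siUFBP1 and at most 0.0989 CPM in siNC.

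Markers of other tissues are given as raw shares of library counts, without TMM factors. A list that is higher as a raw share can be lower in TMM scaling, as all members together were above. Midgut markers took 0.256% to 0.275% of counts in siUFBP1 and 0.212% to 0.217% in siNC, with 25 and 47 of 80 genes at 0. Cuticle markers took 0.257% to 0.269% in siUFBP1 and 0.0492% to 0.0503% in siNC, with 61 and 94 of 155 genes at 0. Muscle markers took 0.193% to 0.205% in siUFBP1 and 0.0359% to 0.038% in siNC, with 2 and 3 of 13 genes at 0. Testis and sperm flagellum markers took 0.0463% to 0.0558% in siUFBP1 and 0.00114% to 0.00127% in siNC, with 4 and 40 of 62 genes at 0. In the silk gland list 1 and 3 of 9 genes were at 0. The part of these tissues in the rise of the scarce immune genes was not tested.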

How the data were processed

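Libraries (6 in all) were made, per the labels' protocols, using the SMARTER mRNA-Seq kit. Fastp and HISAT2 are named in the submitters' processing notes, but not versions, read counter, strand handling or build. The file deposited by the authors gives raw read counts per gene model and FPKM, that is, counts scaled by the authors to gene length and to the library's total, per the file headers. Names and symbols came from the table and from the RefSeq gene table of assembly ASM3026992v2, which matched 17 of the 67 members.

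FilterByExpr left 10729 genes and removed 6148 that held 0.0479% of counts. Counts were tested with edgeR 4.0.16 (TMM factors 1.28 to 1.38 in siUFBP1 and 0.746 to 0.767 in siNC, quasi-likelihood test, group as the only term) in R 4.3.3, with Benjamini-Hochberg adjustment over all tested genes and a threshold of 0.05. The step was checked on simulated counts in which few genes changed, as many up as down. Those data held no shift in composition like the one here, so the check cannot speak for the TMM directions. Standard errors are the absolute log2 fold change over the square root of F. A count of 3 corresponds to 0.0564 to 0.117 CPM, and intervals and floors cover counting error only. Replicates differed beyond sampling noise (chi-square per degree of freedom 2.7 to 14.8). DESeq2 1.42.0, limma 3.58.1, other scalings, filters, the replicate block and leaving out libraries were alternatives. Members and lists were chosen with earlier results of these data known. In each role class the most abundant tested members (6 peptides, 4 in other classes) and the called members with the smallest adjusted p (4 and 3) are named in full, 34 in all. Others were described for completeness. Sequences were not analysed here.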

Additional observations from a re-analysis of the deposited data

How the results depend on the processing

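DESeq2 size factors, TMM factors without the most shifted gene families, both count filters, limma-voom, DESeq2's Wald test and the replicate block left the counts of higher and lower members within 1.5 times of 22 and 19. Leaving out 1 library gave 20 to 23 higher and 18 to 20 lower members, and 3983 to 4255 higher and 2787 to 2918 lower genes overall. Replicate numbers did not pair the libraries (correlations of deviations 0.024, -0.019 and 0.018), and with the replicate block 20 members were higher and 18 lower.

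Library size alone gave 39 higher and 4 lower members, and 8604 higher and 452 lower genes. Limma-trend on log2(FPKM + 1) gave 28 higher and 3 lower of 39 members, and 6625 higher and 406 lower genes. With a pseudocount of 0.1 it gave 3 lower members, and 6601 higher and 406 lower genes. With no FPKM filter it gave 42 higher and 4 lower members, and 9111 higher and 479 lower genes. A 2-fold minimum left 13 higher and 3 lower members, and 2436 higher and 548 lower genes, fewer by construction.

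Of 34 named members, 12 changed sign in some setting. With library size alone the log2 fold changes were 0.03 for KWMTBOMO00204, 0.31 for KWMTBOMO00295, 0.10 for KWMTBOMO01155, 0.16 for KWMTBOMO03709, 0.01 for KWMTBOMO06073, 0.62 for KWMTBOMO06451, 0.55 for KWMTBOMO06452, 0.02 for KWMTBOMO06982, 0.44 for KWMTBOMO07068, 0.34 for KWMTBOMO07538, 0.76 for KWMTBOMO15666 and 0.28 for KWMTBOMO16379. Limma-trend on FPKM (pseudocount 1, then 0.1) gave 0.27 and 0.29 for KWMTBOMO00295, 0.08 for KWMTBOMO01155, 0.13 for KWMTBOMO03709, 0.58 and 0.60 for KWMTBOMO06451, 0.51 and 0.53 for KWMTBOMO06452, 0.42 for KWMTBOMO07068, 0.30 and 0.31 for KWMTBOMO07538, 0.72 and 0.73 for KWMTBOMO15666 and 0.26 for KWMTBOMO16379. FPKM carry the library-size scale. Other scalings kept every sign. Members under 1 CPM rest on few counts even at 25570725 counts or more per library.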
